A study of Mus musculus with 11 samples.

Results

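Gapdh and its gene copies were followed in the hippocampus of young adult F1 mice. The group held 8 of the 38293 genes in the count tables: Gapdh itself, its paralogue Gapdhs, the protein-coding copy Gm3839 and the 5 processed pseudogenes Gm14148, Gm7251, Gm4609, Gm9034 and Gm9499. They were taken by symbol from a list that was chosen by the measured FD to CD differences of these same mice, so the values of that contrast are given for these genes as a description. Where a fit's calls among them are named, they are set beside the share of all genes called, and nothing is read from them. All 8 genes were found in the tables, and 7 reached the minimum of 10 counts in total over the 11 mice; Gm3839 did not, with 5 counts in all.

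All animals were wildtype 129S6/SvEv x C57BL/6J F1 mice of 14 weeks of age, and whole-hippocampus RNA was sequenced as 50 base single-end reads. CD mice (n = 6, 3 males and 3 females) were born to dams on a control diet with 2.3 mg folic acid (FA) per kg, and FD mice (n = 5, 2 males and 3 females) to dams fed 40 mg FA per kg until they were mated, after which every dam and every F1 mouse had the control diet. The deposited tables hold raw counts of reads with a single alignment, between 11737554 and 44447006 per mouse. No difference between CD and FD mice was detected in this depth (exact permutation test of group means, two-sided, p = 0.5866). None was detected in the share of reads with several alignments either (exact permutation test of group means, two-sided, p = 0.5). That share was 14.7% ± 0.916 in CD and 14.3% ± 0.501 in FD mice (SD, n = 6 and n = 5). The hippocampal neuron markers Prox1, Neurod6, Wfs1, Spink8 and Rbfox3 were all present, at a summed level of 817 to 900 CPM (counts scaled to library size) in CD and 729 to 872 CPM in FD mice. From the labels, nothing shows whether mice shared a litter, so the spread given is that between mice.

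GAPDH is the glycolytic enzyme that oxidises glyceraldehyde phosphate while reducing NAD, and it is made in every cell, in brain as elsewhere. Its gene is widely used as a reference for transcript levels. Mammalian genomes also carry very many processed copies of it, which arose when its spliced mRNA was reverse transcribed and inserted at new places, and which therefore lack introns and mostly lack an intact reading frame. GAPDHS is a separate enzyme of sperm with the same catalytic activity, encoded by an intron-containing gene that is used in haploid germ cells.

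Gapdh (ENSMUSG00000057666) lies on chromosome 6 of GRCm38, from 125161715 to 125166467 on the minus strand, and its main transcript of 1272 bases carries a coding sequence of 1002 bases with the stop codon, spread over 7 exons. Gm4609 lies on chromosome 3 (122230195 to 122231196, minus strand), Gm14148 on chromosome 2 (151374008 to 151375047, plus), Gm7251 on chromosome 13 (49804944 to 49805952, minus), Gm9034 on chromosome 10 (43821231 to 43822235, plus) and Gm9499 on chromosome 1 (97001820 to 97002783, minus). None of these 5 loci overlapped another annotated gene. The annotation lists Gm3839 on chromosome 14 (11280735 to 11356726, minus) as protein-coding, with the coding sequence in a single exon, and its transcript matched that of Gapdh at 99.2% over 1200 bases. Gapdhs lies on chromosome 7 (30729775 to 30743681, minus) and its matching stretch of 620 bases was 77.1% identical to Gapdh.

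Of the 5 processed copies, Gm4609 was by far the closest to its parent, with 4 substitutions over the whole coding sequence of 1002 bases. Counted from the A of the Gapdh start codon, with the Gapdh base first and the base of the copy last, these were T63C, C420A, C591T and G718A. Its reading frame was intact over 333 codons, as in Gapdh. Only C420A set it apart from every other annotated gene, and the 99 bases around that position, marked by a capital, are therefore the part of Gm4609 in which a 50-base read can be told from all others:

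Gapdh: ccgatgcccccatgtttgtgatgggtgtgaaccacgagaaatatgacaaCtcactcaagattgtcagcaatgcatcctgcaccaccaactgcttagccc

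Gm4609: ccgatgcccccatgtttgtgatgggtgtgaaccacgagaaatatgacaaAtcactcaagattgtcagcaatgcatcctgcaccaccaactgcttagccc

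The stretch lies at chr6:125162893-125162991 in Gapdh and at chr3:122230728-122230826 in Gm4609, both read from the minus strand. The other copies had drifted further. Gm14148 had 36 and Gm7251 35 substitutions over their aligned coding bases, at identities of 96.4% and 96.5%, and Gm9034 had 65 substitutions at 93.5%. Gm9499 was the most distant, with 155 substitutions at 83%. The longest reading frame was 335 codons in Gm14148, 293 in Gm7251, 125 in Gm9034 and 65 in Gm9499. Coding bases 909 to 998 show the degree of divergence, since in this stretch each copy differed from Gapdh at a rate close to that over its whole length; capitals mark the bases that differ from Gapdh:

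Gapdh: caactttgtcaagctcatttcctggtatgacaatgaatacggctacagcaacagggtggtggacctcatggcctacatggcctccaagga

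Gm14148: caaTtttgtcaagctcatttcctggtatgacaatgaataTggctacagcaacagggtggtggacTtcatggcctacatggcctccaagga

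Gm7251: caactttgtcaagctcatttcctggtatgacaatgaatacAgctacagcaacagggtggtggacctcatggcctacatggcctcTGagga

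Gm9034: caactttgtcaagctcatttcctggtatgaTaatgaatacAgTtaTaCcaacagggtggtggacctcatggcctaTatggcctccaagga

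Gm9499: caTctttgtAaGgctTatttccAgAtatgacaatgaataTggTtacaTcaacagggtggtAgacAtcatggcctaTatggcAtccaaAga

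The stretch is chr2:151374954-151375043 in Gm14148, chr13:49804948-49805037 in Gm7251, chr10:43822145-43822234 in Gm9034 and chr1:97001824-97001913 in Gm9499. Within these 90 bases Gm14148 and Gm7251 differed from Gapdh at 3 positions each, Gm9034 at 6 and Gm9499 at 14. In Gapdh the stretch spans more than 1 exon, while it is unbroken in each copy.

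How far a read can be assigned to a single gene was measured by taking every 50-base window of each transcript and looking for the same bases in any other annotated mouse gene. Of the 953 windows that lie wholly in the Gapdh coding sequence, 0 occurred in Gapdh alone, and the median window was found in 43 annotated genes. Windows found in Gapdh alone made up 117 of the 1223 windows of its main transcript (9.57%), of which 74 began upstream of the start codon and 43 reached past the stop codon. In Gm4609, 50 of 953 windows (5.25%) were found in no other gene. The share was 47.4% in Gm7251, 57.2% in Gm14148, 82.3% in Gm9034 and 100% in Gm9499, in which no window came within 2 mismatches of Gapdh. It was 40.2% in Gm3839 and 97.2% in Gapdhs. A read that matches the annotated bases exactly can be assigned to Gapdh or to Gm4609 alone only over these small parts. Other annotated Gapdh transcripts hold further sequence (4133 exonic bases in all), which was not searched.

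**Figure D1:**
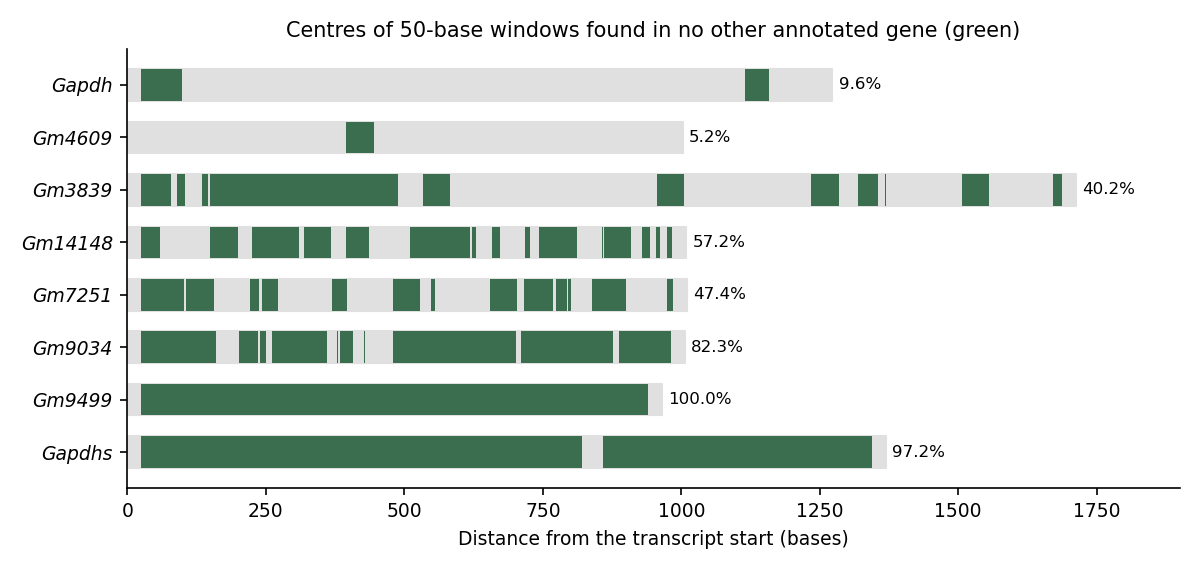
Each bar is the main transcript of a gene, drawn to scale in bases from its start, and green marks the centres of the 50-base windows that occur in no other annotated gene. The percentages are the shares of such windows, from 5.25% in Gm4609 and 9.57% in Gapdh to 100% in Gm9499; the Gapdh windows lie only at the ends of the transcript.

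Gapdh was lower in FD than in CD F1 mice by a small amount and with groups that did not overlap. The lowest, median and highest CD mouse had 564, 1173 and 2293 Gapdh counts, and the FD mice had 1541, 944, 529, 659 and 1033 (female 1, male 1, female 2, male 2 and female 3). Scaled to library size, the CD mean of Gapdh was 49.9 ± 2.02 CPM (SD, n = 6) and the FD mean 43.9 ± 2.42 CPM (SD, n = 5). CD mice ranged from 48.1 to 53 CPM and FD mice from 40.3 to 46.6 CPM. The log2 fold change (FD over CD, edgeR's quasi-likelihood model over all 20589 genes tested) was -0.19 with a standard error of 0.053. Gapdh did not pass the adjusted p threshold of 0.1 (adjusted p = 0.7135, edgeR's quasi-likelihood test). A pattern in which every FD mouse lay below every CD mouse was seen for 0.102% of all genes tested, and for Gapdh it is known from the choice of the gene. Per kilobase of annotated exon, the level of Gapdh was 12.1 CPM ± 0.489 in CD mice. On the same scale Aldoa stood at 527 ± 55.8, Tpi1 at 163 ± 19.2 and Pgk1 at 9.29 ± 1.57 (SD, n = 6), so that Gapdh was counted far below its glycolytic neighbours Aldoa and Tpi1 in these uniquely aligned reads. Iffo1, on the opposite strand, shares a short end with Gapdh, and whether the counting used strand is not stated.

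Gapdhs showed no such shift. The lowest, median and highest CD mouse had 12, 29 and 65 counts, and the FD mice had 39, 35, 24, 25 and 21 in the order given above. The groups overlapped widely, at 1.30 ± 0.465 CPM (SD, n = 6) in CD and 1.45 ± 0.426 CPM (SD, n = 5) in FD mice, and the log2 fold change was 0.11 with a standard error of 0.26. Without CD female 1 it was -0.048. Markers of haploid germ cells were at or near 0 in the same libraries: Tnp1 and Akap4 had 0 counts in all 11 mice, Prm2 and Tnp2 had 2 counts each in all, and Prm1, which encodes a sperm protamine, had 28. The locus also overlaps the antisense gene Tmem147os, which was measured at 14.8 ± 1.21 CPM (SD, n = 6) in CD mice, well above Gapdhs itself. Without strand information, reads of the overlapping parts cannot be told apart.

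Gm3839 was close to absent. Its counts were 1 in CD male 3, 2 in CD female 3, 2 in FD male 1 and 0 in the other 8 mice, below the 3 counts that a count of 0 allows per library, and no difference could be detected at this depth.

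The 5 processed copies all had higher values in FD mice, with no overlap between the groups in CPM for any of them. Of all genes tested, 0.403% had every FD mouse above every CD mouse, and 0.068% (14 genes, all of them higher in FD) passed the adjusted p threshold of 0.1. The 5 copies were among these 14, as they had to be given how the genes were chosen, and they are no evidence on the copies. With a replicate block over the 5 pairs of mice that share sex and number, 4 of the 5 were past the threshold and Gm9499 was not, while 23 genes in all were called, 19 of them higher in FD (0.094% of those tested in this direction); this fit leaves out CD male 3, which has no partner. All 5 were called by DESeq2 (0.0874% of genes called higher in FD) and without a count minimum (0.0571%), 4 with sex as covariate (0.0583%), and with edgeR's own count filter (0.0503%), which kept only 3 of the 5 for testing, 2 were called.

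Gm7251 had the highest counts among the 5. The lowest, median and highest CD mouse had 3, 5 and 15 counts, and the FD mice had 33, 21, 11, 11 and 23. Scaled to library size, the CD mice lay between 0.159 and 0.471 CPM and the FD mice from 0.778 CPM upwards, with means of 0.318 ± 0.127 (SD, n = 6) and 0.905 ± 0.0934 (SD, n = 5). The log2 fold change was 1.51 with a standard error of 0.25.

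Gm14148 had 2, 4.5 and 8 counts in the lowest, median and highest CD mouse, and 26, 15, 7, 12 and 16 in the FD mice. Its level was 0.194 ± 0.0473 CPM (SD, n = 6) in CD and 0.703 ± 0.117 CPM (SD, n = 5) in FD mice, and its log2 fold change was 1.88 with a standard error of 0.26. The gap between the highest CD mouse, at 0.251 CPM, and the lowest FD mouse, at 0.533 CPM, was wider than the range within the CD group.

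For Gm9034 the lowest, median and highest CD mouse had 0, 4.5 and 10 counts. The FD mice had 25, 15, 8, 8 and 14. The mean was 0.176 ± 0.102 CPM (SD, n = 6) in CD and 0.639 ± 0.076 CPM (SD, n = 5) in FD mice, a log2 fold change of 1.74 with a standard error of 0.33. CD female 3 had no count at a depth where 3 counts correspond to 0.2 CPM.

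Gm9499, the most divergent copy, had 0, 2 and 5 counts in the lowest, median and highest CD mouse and 11, 12, 9, 5 and 12 in the FD mice. In CPM the groups stood at 0.0828 ± 0.0548 (SD, n = 6) and 0.485 ± 0.152 (SD, n = 5), and the log2 fold change was 2.18 with a standard error of 0.38. None of its windows resembled Gapdh closely, as given above.

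Gm4609, the copy with the fewest distinguishing bases, had the largest fold change of the 5 copies and the widest spread among FD mice. CD male 1 had 5 counts, CD female 1, CD male 2 and CD male 3 had 1 each, and CD female 2 and CD female 3 had 0. The FD mice had 18, 9, 14, 3 and 11 counts. Its mean was 0.0477 ± 0.0674 CPM (SD, n = 6) in CD and 0.537 ± 0.318 CPM (SD, n = 5) in FD mice. The lowest FD mouse, male 2 at 0.212 CPM, lay just above the highest CD mouse, male 1 at 0.179 CPM. The log2 fold change of 3.16 had a standard error of 0.55, and it ranged from 2.88 to 4.13 when single mice were left out. The CD counts alone did not reach the count minimum, so Gm4609 was tested only because of its FD counts. With so few CD counts, the size of this fold change and its rank among the copies are poorly determined.

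**Figure D2:**
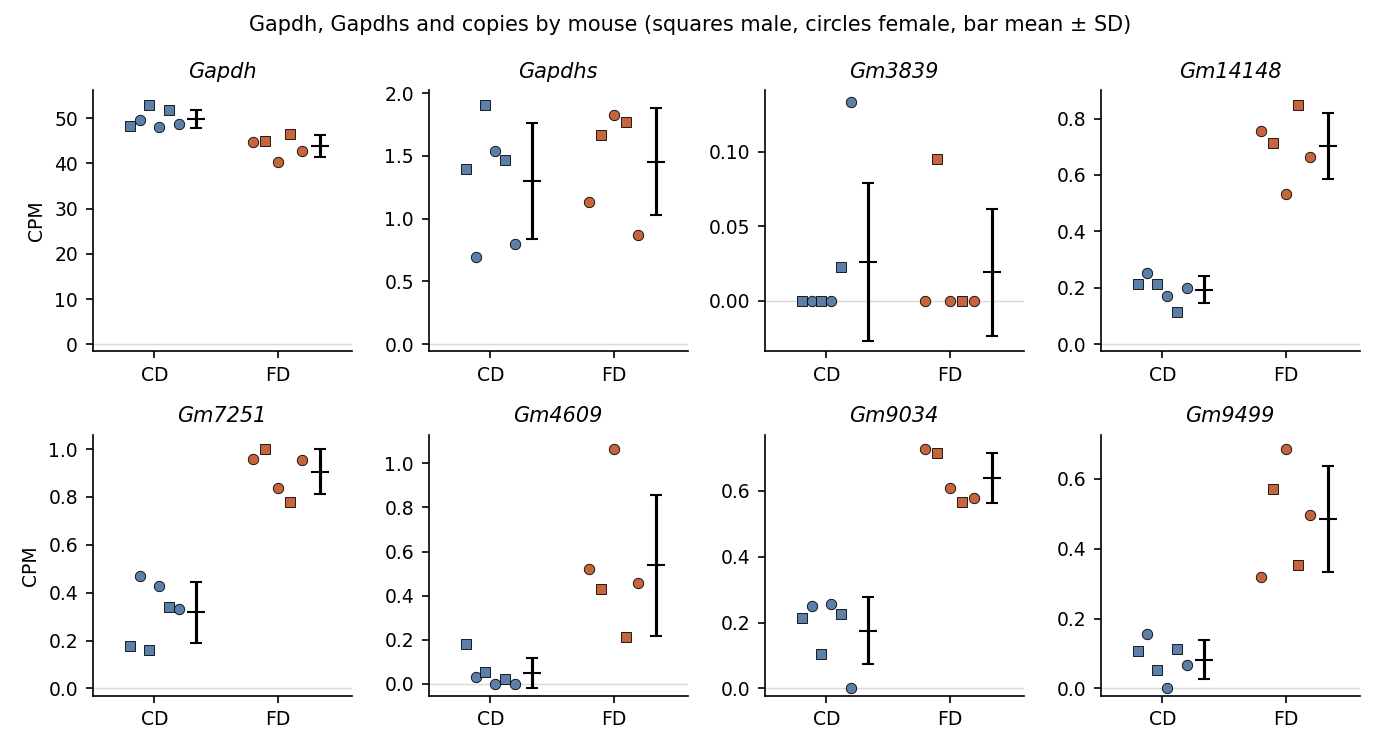
Each panel gives a gene's level in CPM for the 6 CD mice (blue) and 5 FD mice (orange), squares for males and circles for females, with the group mean ± SD in black. Gapdh lies between 40.3 and 46.6 CPM in FD and 48.1 and 53 CPM in CD mice, and the 5 processed copies lie higher in every FD mouse than in any CD mouse.

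Levels were compared between the 8 genes as CPM per kilobase of exon. In CD mice Gapdh (12.1 ± 0.489) was followed by Gapdhs (0.807 ± 0.289), Gm7251 (0.315 ± 0.126), Gm14148 (0.192 ± 0.0469), Gm9034 (0.175 ± 0.101), Gm9499 (0.0859 ± 0.0569), Gm4609 (0.0476 ± 0.0673) and Gm3839 (0.0152 ± 0.0311; SD, n = 6 for each). Only Gapdh stood clear of its neighbour in that order by more than the ranges over mice; Gapdhs and Gm7251 met in their ranges (0.429 to 1.18 and 0.157 to 0.467), and so did all later neighbours. In FD mice Gapdhs, at 0.902 ± 0.265, and Gm7251, at 0.897 ± 0.0925 (SD, n = 5), lay within each other's spread. The order was otherwise that of the CD mice except for Gm4609 (0.536 ± 0.317) and Gm9499 (0.503 ± 0.158), which changed places within their spread.

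Set against Gapdh in the same mouse, the 5 copies together gave 16.5 ± 4.52 counts per 1000 Gapdh counts (SD, n = 6) in CD mice, between 11 and 23.4. In FD mice they gave 75 ± 11.9 (SD, n = 5), with 73.3, 76.3, 92.6, 59.2 and 73.6 in female 1, male 1, female 2, male 2 and female 3. The FD mean was 4.56 times the CD mean, and the quotient was 3.999 when the counts were scaled to library size instead, so most of the difference lay in the copies and a smaller part in Gapdh. The ratio of the means was 4.48 among females and 4.49 among males. The single copies differed in this ratio, from 3.23 for Gm7251 to 13.1 for Gm4609, the latter over very few CD counts.

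To place the 5 copies beside the others of the same parent, all annotated pseudogenes with at least 80% identity to the Gapdh transcript over at least 200 bases were collected, by sequence and without regard to their values. There were 327, of which 134 had a row in the count tables, on 21 chromosomes. Over all 134, the mean CPM was higher in FD mice for 114, lower for 18 and equal for 2. The count minimum was reached by 129, among them the 5 listed. Of the other 124, 110 (88.7%) had a positive log2 fold change and the median was 0.52. Some of the 124 reached the count minimum only through their FD counts, such as Gm14491 with 0 counts in every CD mouse. They enter the shares given here. None of these 124 passed the adjusted p threshold in edgeR's quasi-likelihood test. The 5 listed copies left out here were chosen by this contrast, so that lack of calls is no result. An unadjusted p under 0.05 was found for 37 (29.8%), all of them higher in FD, and in 16 (12.9%) all FD mice lay above all CD mice. With DESeq2 (0.0874% of all genes called higher), Gm6316 and Gm14491 were past the threshold as well. In comparison, 48.2% of all 20589 genes tested were higher in FD, with a median of -0.0040; 2.59% had an unadjusted p under 0.05 and 0.403% had all FD above all CD mice. Of the 1314 tested processed pseudogenes that are not Gapdh copies 70.1% were higher, with a median of 0.18. Of them, 13.9% had an unadjusted p under 0.05 and 3.35% had all FD above all CD mice. The adjusted p threshold was passed by 6 of these 1314, against 14 of all 20589 genes tested. The difference between the Gapdh copies and these other pseudogenes was not tested.

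**Figure D3:**
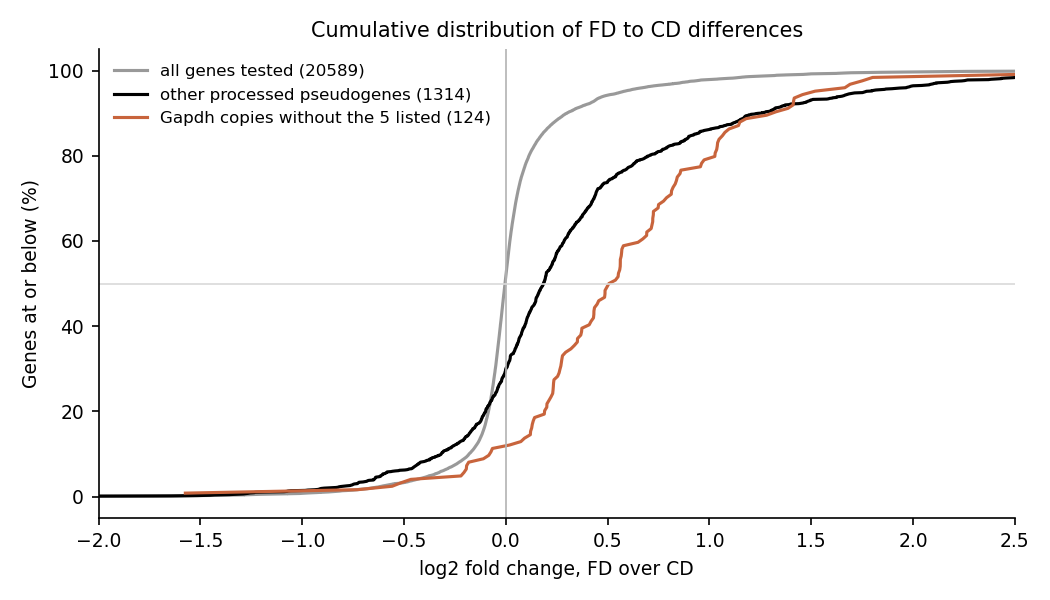
Cumulative share of genes (%) at or below each log2 fold change (FD over CD) for all 20589 genes tested (grey), the 1314 other processed pseudogenes (black) and the 124 Gapdh copies other than the 5 listed (orange). The orange curve lies to the right of the others through its middle, with medians of -0.0040, 0.18 and 0.52; Gm14491 and other values outside -2 to 2.5 are beyond the axis.

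The 5 other copies with the most counts were 3000002C10Rik, Gm26587, Gm5069, Gm10327 and Gm12182. 3000002C10Rik, with 72 to 242 counts in CD and 77 to 200 in FD mice, differed by 0.018 on the log2 scale (standard error 0.12). The value was 0.19 for Gm26587 (standard error 0.15), 0.20 for Gm5069 (standard error 0.14) and 0.20 for Gm12182 (standard error 0.20). Gm10327, at 98.2% identity to Gapdh and with a reading frame of 333 codons, had 0.56 (standard error 0.18), at 0.859 ± 0.129 CPM (SD, n = 6) in CD and 1.27 ± 0.251 CPM (SD, n = 5) in FD mice. In contrast, Gm14491, on the X chromosome, had 0 counts in every CD mouse and 5, 7, 3, 1 and 3 in the FD mice; it was picked after its values were seen. Among the 124 other copies, 26 had a log2 fold change above 1 and 1 had a value below -1. The share of all genes past these values is not given here, so these counts are a description only. Some of the 26 rest on very few counts, such as Gm2574 and Gm12717 with 0 to 2 counts per CD mouse.

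Without the 5 listed copies, each class of identity to Gapdh had a higher mean ratio to Gapdh in FD mice. The summed counts per 1000 Gapdh counts of the 24 copies with 95% to 99% identity were 139 ± 17.1 (SD, n = 6) in CD and 275 ± 33.6 (SD, n = 5) in FD mice, a ratio of 1.98. The ratio was 1.36 for the 19 copies above 99%, where the groups overlapped (43.2 to 68.4 against 56.2 to 90.03), 1.55 for the 28 copies from 90% to 95%, 1.56 for the 35 from 85% to 90%, and 1.58 for the 23 from 80% to 85%. The lower Gapdh count of the FD mice enters each of these ratios. Across the 124 other copies tested, Spearman's rho of the log2 fold change was 0.041 with identity, 0.00071 with the share of windows found in no other gene and 0.199 with the mean count. The copies share the same libraries, and no relation is read from these coefficients.

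**Figure D4:**
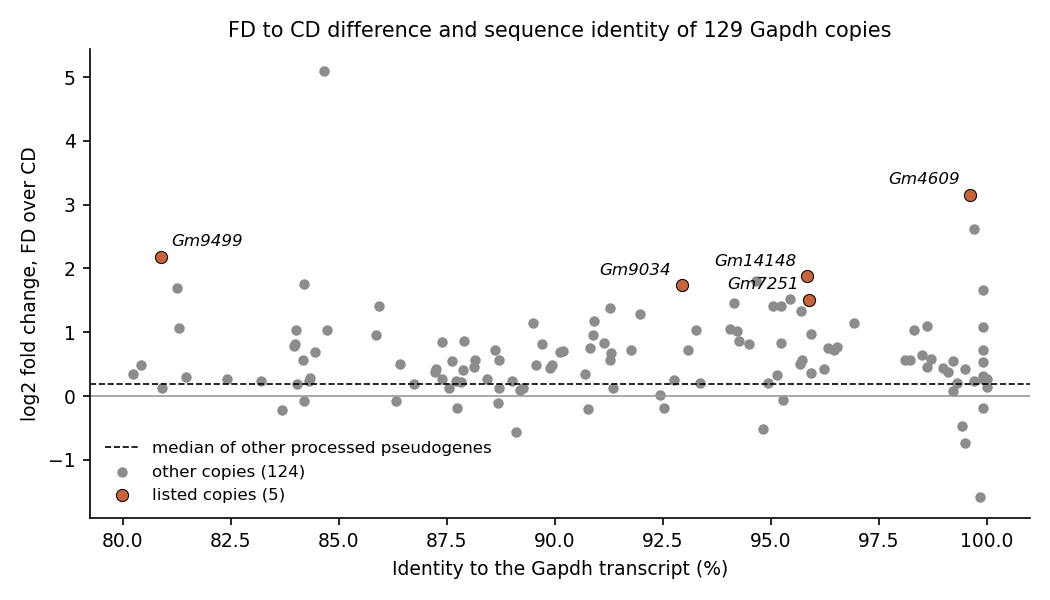
Each point is a tested Gapdh copy, with its identity to the Gapdh transcript (%) on the x axis and its log2 fold change (FD over CD) on the y axis; the 5 listed copies are orange and named, and the dashed line is the median of the other processed pseudogenes (0.18). The 124 other copies lie mostly above 0 at every identity, and the 5 listed ones lie near the upper edge.

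Summed over the 129 copies that were not listed, the CD mice had 771 ± 65.1 counts per 1000 Gapdh counts (SD, n = 6) and the FD mice 1250 ± 140 (SD, n = 5), without overlap (705 to 862 against 1055 to 1429). The FD to CD ratio was 1.62 in all mice, 1.58 among males and 1.61 among females. The listed copies held 2.18% of all counts on the 134 copies in CD mice and 5.58% in FD mice. In CPM, Gapdh was lower by 6.02 in FD mice and all its copies together were higher by 18.6, from 39.3 ± 3.09 (SD, n = 6) to 57.9 ± 4.39 (SD, n = 5). Gapdh and copies together thus moved from 89.2 ± 3.87 to 102 ± 3.84 CPM, and the difference in Gapdh was smaller than that of its copies.

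**Figure D5:**
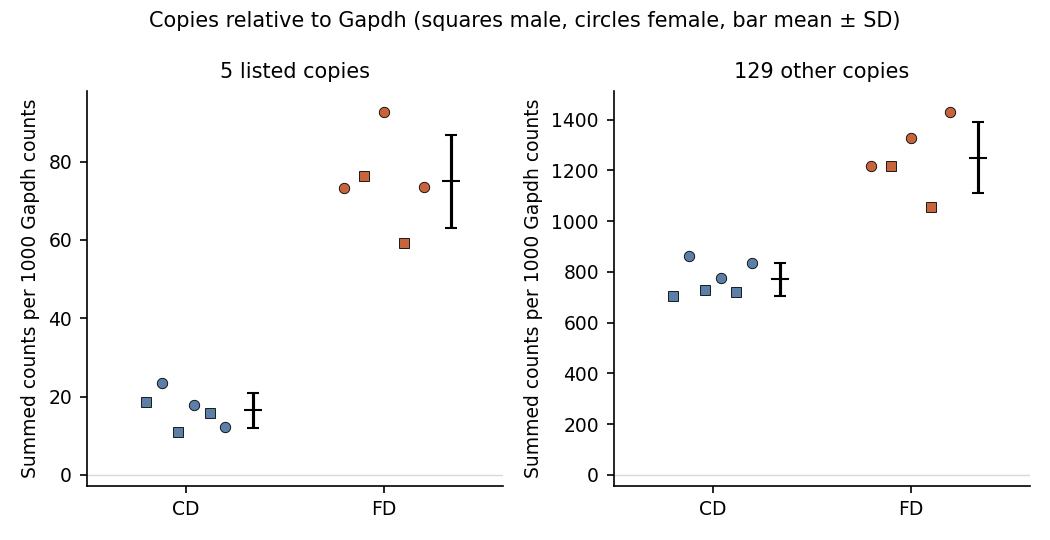
Summed counts of the 5 listed copies (left) and of the 129 other copies (right) per 1000 Gapdh counts in each CD (blue) and FD (orange) mouse, squares for males and circles for females, with mean ± SD in black. The FD mice lie between 59.2 and 92.6 on the left and between 1055 and 1429 on the right, above all CD mice in both panels.

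The sexes offered a contrast that the choice of the genes had not used. None of the 7 listed genes tested passed the threshold between males and females (edgeR's quasi-likelihood test with diet as covariate), where 6.11% of all genes tested did. Gapdhs came closest. Its level was 1.40, 1.91, 1.47, 1.67 and 1.77 CPM in the males (CD 1, 2 and 3, FD 1 and 2), and 0.691, 1.001 and 1.83 CPM in the lowest, median and highest of the 6 females. Males were thus mostly higher, with overlap through CD female 2 and FD female 2, and they differed from females by 0.64 on the log2 scale (standard error 0.22; adjusted p = 0.112, edgeR). Without CD female 2 the value was 0.78 and without FD female 2 it was 0.77, both past the threshold. Without a count minimum it was 0.64, also past it (adjusted p = 0.0279, edgeR). These fits called 3244, 2762 and 2645 genes in all, against 1257 in the main fit, so nothing is read from them. With each other mouse left out, 18 to 590 genes were called and the adjusted p of Gapdhs lay between 0.15 and 0.309 (edgeR). Gapdh differed by 0.077 (standard error 0.048, adjusted p = 0.397), and the adjusted p of the 5 processed copies ranged from 0.53 to 0.998. Between the sexes the 124 other copies had a median log2 fold change of -0.16 (males over females), with 0 past the threshold. Of these copies 36 (29.0%) were higher in males, against 49.1% of all genes tested and 49.9% of the other processed pseudogenes. This difference was not tested. An unadjusted p under 0.05 (edgeR's quasi-likelihood test) was found for Gapdhs alone among the listed genes and for 6 of the 124 other copies, those 6 all lower in males. The share of all genes with such a p is not given here, and nothing is read from these counts. With DESeq2, 0 of the 7 listed genes were called and 6 of them, all but Gapdh, received no adjusted p.

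No gene passed the threshold for an interaction of diet and sex in edgeR's quasi-likelihood test or with DESeq2, while 391 of the 20589 had an unadjusted p under 0.05, none of them a listed gene. The largest interaction among the listed genes was that of Gm4609, with a log2 value of -2.77 and a standard error of 1.39 (adjusted p = 1, edgeR). With so few counts a difference in its diet response between males and females was not detectable.

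The enzymes that act beside GAPDH in glycolysis were measured in the same mice. Of 16 glycolytic genes, 15 had a negative and 1 a positive log2 fold change in FD against CD mice, none passed the threshold, and the median was -0.063. Of all genes tested, 48.2% were higher in FD mice. Values were also negative for 5 of 6 reference genes and 4 of 5 hippocampal neuron markers, and positive for 3 of 3 blood markers. Whether the glycolytic genes differ from other genes in this was not tested. Aldoa, which encodes the aldolase just upstream, had -0.12 (standard error 0.081), and Aldoc, the form of brain astrocytes, had -0.042 (standard error 0.050). Tpi1, which converts the other aldolase product into the substrate of GAPDH, had -0.059 (standard error 0.075). Pgk1, the next enzyme downstream, had -0.057 (standard error 0.099). In the contrast of the sexes Pfkl, Aldoa and Eno1 were lower in males, with log2 fold changes of -0.18, -0.20 and -0.19 (adjusted p = 0.0899, 0.0936 and 0.0994, edgeR). None of the reference genes Actb, B2m, Ppia, Tbp, Hprt and Ywhaz passed the threshold between diets, with log2 fold changes from -0.13 (Actb) to 0.011 (B2m); Actb was lower in males (log2 fold change -0.21, adjusted p = 0.0715, edgeR).

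Markers of other tissues were read in the same libraries. The summed choroid plexus markers ranged from 34.1 to 85.5 CPM in CD and from 29.9 to 42.6 CPM in FD mice, 5 of 5 with a negative log2 fold change and 0 called, with Ttr at 21.9 ± 18.6 CPM in CD (SD, n = 6) and 9.07 ± 4.26 CPM in FD mice (SD, n = 5). Blood markers (Hba-a1, Hbb-bs and Alas2) ranged from 9.92 to 45 and from 19.6 to 41.1 CPM, 3 of 3 positive and 0 called. Both ranges overlapped between the groups, and their part in the results was not tested.

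Over 14427 genes, all without a sequence match to Gapdh and averaging 1 CPM or more, those whose log2 CPM followed Gapdh most closely over the 11 mice were Itpkc (Pearson's r 0.92), Rab26os (0.90), Man1b1 (0.84), Mir3074-1 (0.82) and Tfpt (0.81). The genes closest to the sum of the 5 listed copies were Gm13341 (0.97), Gm4707 (0.92), Pafah1b1-ps1 (0.88), Tcaim (0.87) and Glns-ps1 (0.87). Gm13341, Pafah1b1-ps1 and Glns-ps1 are annotated as pseudogenes. All mice of both diets enter these coefficients, which the diet difference itself raises, and they are given as a description.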

How the data were processed

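The authors deposited raw counts per gene for each mouse. Trimmed reads were aligned with STAR to GRCm38 (mm10) and unique alignments were counted; featureCounts is named, the 5 summary lines have the form of HTSeq, and annotation release and strand are not given in the sources used here. The summary lines stayed out of totals and tests (reads without a gene: 7.01% to 11%; ambiguous reads: 1.38% to 1.5%).

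Symbols and transcripts were those of GENCODE M21, which held 36429 of the 38293 identifiers. Counts were compared with edgeR 4.0.16 in R 4.3.3 (TMM, total of at least 10 counts, quasi-likelihood test, Benjamini-Hochberg adjusted p under 0.1): FD against CD without covariates, males against females with diet as covariate, and the interaction. Standard errors are the log2 fold change over the square root of F, and levels are TMM-scaled CPM, where 3 counts correspond to 0.0675 to 0.256 CPM. The fits were also run on simulated data. The outcome of that run is not given here, and nothing is read from it for genes with as few counts as the listed copies. Copies were found with blastn 2.17.0 (annotated pseudogenes, at least 80% identity over at least 200 bases of the main Gapdh transcript). Windows of 50 bases were searched on both strands of all GENCODE transcripts and not in the genome as planned, so matches outside annotated genes are not seen. Python 3.11.15 with pandas 2.3.3 served for the remaining steps.

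The members and lists were chosen with earlier results of these data known. Besides the listed genes, the text names the 5 other copies with the most counts, the 5 genes most correlated with Gapdh and with the summed listed copies, glycolytic neighbours and any glycolytic gene past the threshold, reference genes and tissue markers; Gm14491 and Gm6316 were added after their values were seen. Mice of the same sex and number deviated together in all 5 pairs (r from 0.209 to 0.428 over genes), against a mean of 0.166 and a maximum of 0.448 for the same sex with another number; 3 of the 5 FD mice correlated best with the CD mouse of their own number. By the criterion of r above 0.1 in each pair the numbers were taken to pair the mice. This criterion cannot tell pairing from shared sex, since some mice of other numbers met it too. FD male 1, for example, had r = 0.292 with CD male 3 and 0.277 with CD male 1. Whether the numbers mark pairs is therefore open, and a fit with this replicate block was only an alternative. The others were DESeq2 1.42.0, its size factors, other count filters, sex as covariate and each mouse left out; the same 10 mice without the block were added after seeing the data.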

Additional observations from a re-analysis of the deposited data

Results flagged for a closer look

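The members' values in CPM and per 1000 Gapdh counts were examined in 30 sets, each of the 6 CD or the 5 FD mice. In 3 of them, 1 mouse lay far from the others by Dixon's criterion. Chance alone meets this criterion in about 1 in 20 sets of independent, normally distributed values. Both measures rest on the same counts, many of them near 0, so that rate does not apply directly here. The Gm7251 value per 1000 Gapdh counts was lowest in FD male 2, at 16.7, where the next mouse had 20.8. For Gm4609 in CD mice, male 1 was highest both in CPM, at 0.179 against 0.0530 in the next mouse, and per 1000 Gapdh counts, at 3.72 against 1. The Gm4609 values rest on 5 counts in CD male 1 and on 1 count in the next.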

How the results depend on the processing

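The 14 genes past the threshold between FD and CD mice, 5 of them listed copies, depended on the mice and on the filter. Leaving out each mouse in turn gave 3 to 12 genes, 1 to 4 listed copies and 1 to 5 of all copies found by alignment. Of these 11 fits, Gm14148 was called in 11, Gm7251 in 4, Gm9499 in 3, Gm4609 in 2 and Gm9034 in 1. The fits share most mice and reuse the values by which the copies were chosen, so these calls are no evidence on the copies. The log2 fold changes of the 5 copies stayed positive, which was fixed in advance because their groups do not overlap in CPM. Without CD male 1, female 1, male 2, female 2, male 3 and female 3, the genes called were 5, 9, 5, 9, 4 and 8, of which 2, 3, 1, 3, 1 and 3 were listed copies. Without FD female 1, male 1, female 2, male 2 and female 3 they were 3, 5, 4, 12 and 3, with 1, 1, 1, 4 and 1 listed copies. The filter of edgeR's filterByExpr gave 8 genes, 2 of them copies (Gm7251 and Gm14148; Gm4609 and Gm9499 were filtered out), and a median log2 fold change over the tested copies of 0.72 instead of 0.55; fewer low-count genes entered it. With the replicate block (10 mice in 5 pairs) 23 genes and 4 listed copies were called, while the same 10 mice without the block gave 4 genes and 1 copy; the block turned no direction among the listed genes. DESeq2 called 18 genes and its size factors in edgeR 14, no count filter gave 15 and sex as covariate 12. The wider copies' median stayed between 0.48 and 0.67 with single mice left out. The 1257 genes called between the sexes became 2043 with DESeq2, 2645 without a count filter and 18 to 3244 with single mice left out, so this background is loose; the cause was not tested.

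Signs turned only where values were close to 0. For FD over CD this was Gapdhs, at -0.048 without CD female 1 and up to 0.26 without FD female 3. For males over females, Gm14148 turned from -0.0035 to 0.0081 with DESeq2's size factors, 0.0053 with DESeq2, 0.0093 with filterByExpr, 0.12 without CD female 1, 0.13 without CD male 3, 0.0050 without CD female 3 and 0.051 without FD female 1. Gm9034 turned from 0.029 to -0.032 without CD male 3, -0.12 without CD female 3, -0.053 without FD male 1 and -0.016 without FD female 3, and reached 0.16 without CD female 1. Gm9499 turned from 0.031 to -0.058 without CD female 2, -0.0091 without CD male 3, -0.0074 without CD female 3, -0.17 without FD female 1 and -0.21 without FD male 1, and reached 0.22 without CD female 1. With mean counts of 5.73 to 13.4 per mouse for the 5 listed copies, a single read changes a value visibly.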
